A study of Canis lupus familiaris with 6 samples.

Results

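RIG-I-like receptors are helicases of the cytosol that bind viral or misplaced RNA. DDX58 (the gene of RIG-I) and IFIH1 (the gene of MDA5) bind RNA and then signal through the adaptor MAVS on mitochondria, whereas DHX58 (the gene of LGP2) lacks the signalling domain and tunes the other two receptors. MAVS recruits ubiquitin ligases such as TRAF3 and activates the kinases TBK1 and IKBKE, which act on interferon regulatory factors, while TMEM173 (STING) passes signals from cytosolic DNA to the same kinases. The receptor genes are themselves known to be interferon-inducible in many epithelial cells. The 8 genes were looked up by the gene name column of a canine array, which held 11 probes for 7 of them among 43603 probes in all. No probe carried the name IKBKE, and that gene was not analysed here. DHX58, MAVS, TRAF3 and TBK1 had 2 probes each, numbered below by their start coordinate. A probe was tested where all 3 arrays of a group, or of both, measured it above background, which all 11 did, among 26623 tested probes.

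The samples were MDCK cells, an epithelial line of dog kidney, in which an mCherry-tagged β-catenin without its N-terminal part (β-cat ΔN) was driven constitutively by the EF1 promoter and GFP-tagged RasV12, an oncogenic Ras, was induced by tetracycline. In single culture, β-cat ΔN/RasV12 cells grew alone (3 arrays). In mix culture, they grew among β-cat ΔN cells at 10 surrounding cells per RasV12 cell (3 arrays). Both groups thus carried β-cat ΔN and RasV12, both had 24 h of tetracycline, and both were sorted for GFP before RNA extraction, so that the comparison asks how the surrounding cells altered expression in the transformed cells. The sources do not say whether replicates were separate cultures, and p-values measure the spread between these samples, which may be technical. In bulk RNA, a change in every cell and a change in the share of cells expressing a gene cannot be told apart.

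Replicate 1 of each group lay on slide 1 and the other 4 arrays lay on slide 2, so differences are also given within each slide. On the arrays, 61.1% to 65.7% of the spots were well above background. In the table of values that the authors deposited, the columns of mix culture replicates 2 and 3 each matched the other's scanner file (r = 0.999 and 0.993, against 0.457 and 0.459 with their own, across probes). Both arrays belong to the same group and slide, so that no fit without replicate pairs depends on it. All 8 epithelial markers were well above background on all 6 arrays and none was called. Their summed level, relative to each array's 75th percentile, was 766 to 923 in single culture and 546 to 762 in mix culture. These ranges did not overlap, with 766 and 762 as the nearest values, and 8.66% of all tested probes were lower without overlap. The brightest probes in the sum were those of KRT18 and KRT19, with log2 differences of −0.40 and −0.32. The EPCAM probes differed by −0.02 to 0.06, those of PAX8 by 0.31 and 0.47, and those of CDH1 by −0.60 to −0.46. Of 6 leukocyte markers, 4 were above background on all arrays, PTPRC and LCP2 were on none, and the summed level was 1.40 to 1.68 in single and 1.39 to 1.5 in mix culture. Fibroblast markers summed to 1.07 to 2.21 and 0.911 to 1.88. Of these 6 markers, 2 were above background on all arrays, while DCN and PDGFRA were at background on every array. Endothelial markers summed to 5.61 to 14.2 and 4.76 to 14.5. Of these 5 markers, 3 were above background on all arrays, while TEK was at background on every array. The brightest was VWF, at a mean log2 level of 2.76 in single and 2.68 in mix culture. The part of these levels in the results below was not tested.

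The probes of the 3 receptors carry the results and are given here as the design prints them, 5′ to 3′, in the sense of the transcript. Positions are on CanFam3.1 as the files give them, and exon or UTR annotation was not used here. The DDX58 probe lies at chr11:49764597-49764656 on the minus strand. A further probe with the name TC66356 and a description that names DDX58 spans chr11:49787542-49788534 on the same strand. That span is 993 bases for a probe of 60 bases, so the probe joins separate stretches of the genome. It is no member by name and is given beside DDX58 as a reading at another place. The IFIH1 probe lies at chr36:7671627-7671686 on the minus strand. The DHX58 probes lie on the plus strand, the first at chr9:20788773-20788832 and the second at chr9:20795197-20795256, with starts 6424 bases apart. Capitals in the first DHX58 probe mark the codons of the DExH box, the motif after which this helicase family is named. The receptors' probes had a GC content of 38.3% to 55%.
DDX58: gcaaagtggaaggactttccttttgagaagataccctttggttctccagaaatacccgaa
TC66356: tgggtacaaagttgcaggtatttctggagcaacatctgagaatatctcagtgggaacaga
IFIH1: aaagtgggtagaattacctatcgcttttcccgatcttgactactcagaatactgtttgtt
DHX58, probe 1: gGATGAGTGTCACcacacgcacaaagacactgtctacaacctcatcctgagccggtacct
DHX58, probe 2: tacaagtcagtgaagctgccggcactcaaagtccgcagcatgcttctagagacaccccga

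All 3 receptor genes were higher in mix culture, and neither the adaptors nor TBK1 passed the test with them. Of the 11 member probes, 4 were called higher and 0 lower by limma at a Benjamini-Hochberg adjusted p under 0.05, against 0.883% of all tested probes called in either direction 0.815% called higher and 0.0676% called lower. At an unadjusted p under 0.05, 5 member probes were higher and 0 lower, against 4.86% and 3.84% of all tested probes. The 4 called probes were those of DDX58, IFIH1 and DHX58. Both DHX58 probes entered the test only through mix culture, where they are high. The groups did not overlap for 6 member probes, all higher in mix culture, against 7.85% of all tested probes that were higher and 8.66% that were lower without overlap. The other 2 of these 6 were the TBK1 probes. The members and the lists below were chosen with earlier results of these data known. Counts of calls, here and below, are thus no unbiased comparison with the shares over all tested probes. The study followed DDX58 after finding it on these same arrays, so its rise here is not independent evidence. Beyond the arrays, the study reported higher DDX58 by q-PCR in the co-cultured cells and lower NF-κB activity with a RIG-I inhibitor.

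**Figure D1:**
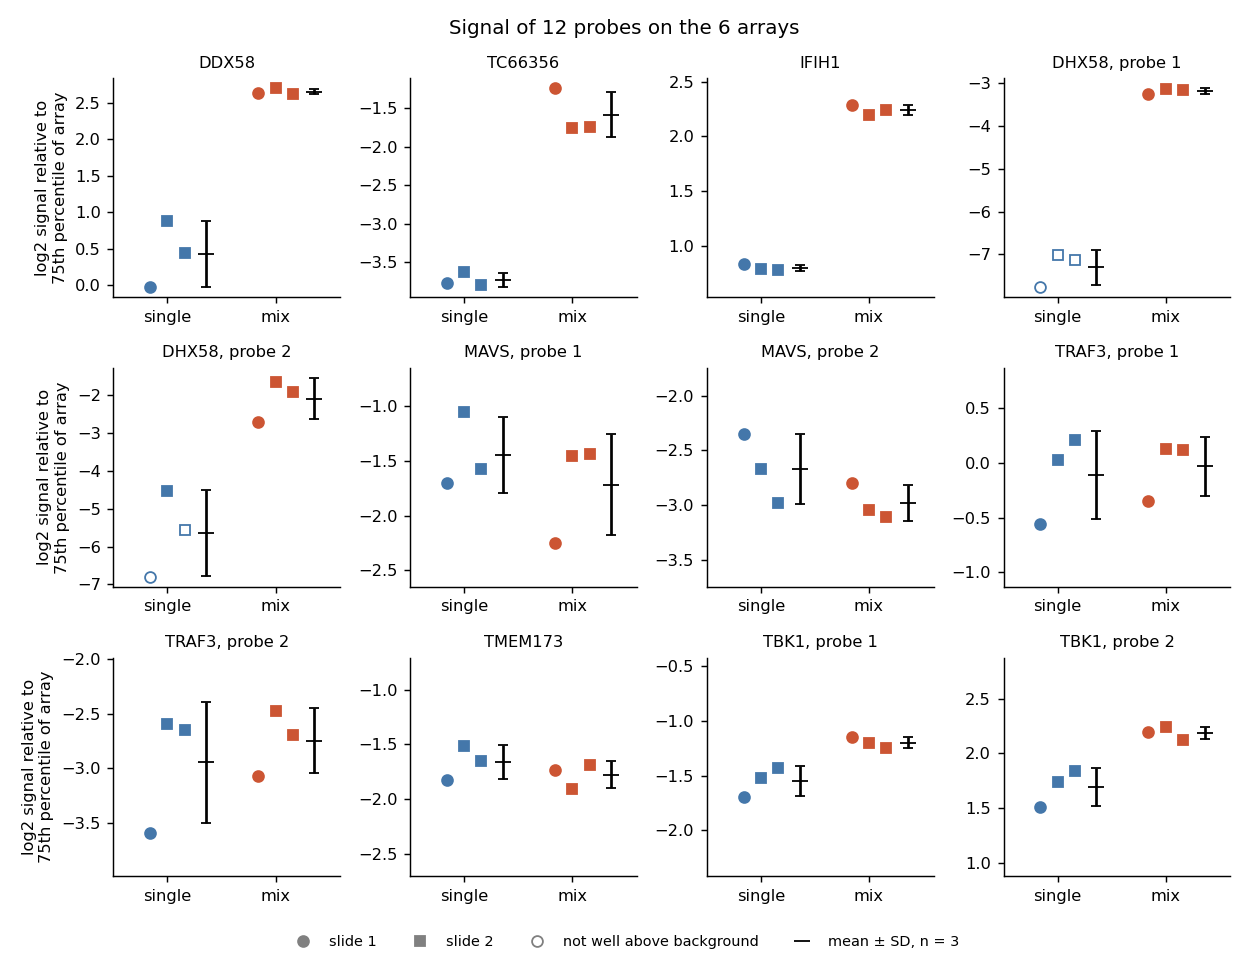
Log2 signal relative to the array's 75th percentile (y axis, one range per panel) in single and mix culture for the 11 member probes and TC66356. Circles are slide 1, squares slide 2, open symbols are not well above background, and bars give the mean ± SD over 3 arrays. The receptor and TBK1 panels have no overlap between groups, while MAVS, TRAF3 and TMEM173 overlap.

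DDX58, the receptor that recognises short RNA with a 5′ triphosphate, had a background-subtracted intensity of 202, 306 and 234 in the 3 single culture replicates. In mix culture the intensity was 1443, 1171 and 993. The lowest mix culture array was thus far above the highest single culture array. Relative to each array's 75th percentile, the log2 level was 0.43 ± 0.45 in single and 2.65 ± 0.04 in mix culture (SD, n = 3), so that the spread lay in single culture, where replicate 1 was lowest. The rise was 2.22 on the log2 scale (SE 0.24, 4.67-fold, adjusted p = 0.00895 by limma), the 130th largest of 26623 tested probes. Within slides it was 2.66 on slide 1 and 2.0 on slide 2. Leaving out single culture replicate 3, mix culture replicate 2 or mix culture replicate 3 ended the call, with adjusted p from 0.0605 to 0.0615, and over all 6 such fits the rise was 1.99 to 2.45. By the methods' t-test the adjusted p was 0.157.

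The TC66356 probe, upstream of the DDX58 probe on the same strand, moved by a like amount from a lower signal. Its intensity was 15.1, 13.5 and 12.4 in single culture. It was 98.3, 53.3 and 48.0 in mix culture, with all 6 arrays well above background. The rise was 2.15 on the log2 scale (SE 0.19, adjusted p = 0.00409 by limma), and 2.53 and 1.96 within slides 1 and 2. The changes of the DDX58 and TC66356 probes differed by 0.07 on the log2 scale, with overlapping groups. The single culture arrays of TC66356 lay close together, unlike those of DDX58, and mix culture replicate 1 stood above the other two. TC66356 was called in all 6 fits that left out an array, but not with normexp (0.70, adjusted p = 0.0703) or by the methods' t-test (adjusted p = 0.105).

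IFIH1, the receptor of long double-stranded RNA, had the most even values of the members. Its intensity was 365, 288 and 296 in single culture. It was 1135, 827 and 761 in mix culture. Every mix culture array exceeded every single culture array by more than the whole range within either group. The log2 level was 0.80 ± 0.03 in single and 2.24 ± 0.05 in mix culture (SD, n = 3), a rise of 1.44 (SE 0.14, 2.72-fold, adjusted p = 0.0055 by limma). The rise was 1.46 on slide 1 and 1.43 on slide 2. Leaving out single culture replicate 3 gave an adjusted p of 0.0544, and the call held in the other 5 such fits, with rises of 1.42 to 1.47. IFIH1 was the 1 member probe called by the methods' t-test.

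DDX58 rose by 0.78 more than IFIH1 on the log2 scale. The difference DDX58 minus IFIH1 within an array was −0.37 ± 0.47 in single and 0.41 ± 0.08 in mix culture (SD, n = 3), without overlap. The same held for TC66356 minus IFIH1, whose change differed by 0.71. In a two-sided exact permutation test each of these 2 differences had p = 0.1 (adjusted p = 0.1), the smallest that 3 arrays against 3 allow.

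DHX58, the regulatory receptor, was at or near background in single culture and measurable in mix culture. Probe 1 had intensities of 0.945, 1.30 and 1.23 in single culture, none well above background. It had 24.2, 20.4 and 18.0 in mix culture, all 3 well above background. Since no single culture array measured it, the change has only a lower bound. With the mix culture mean set against the lowest signal above background on each single culture array, probe 1 was at least 4.67-fold higher. The limma fit (adjusted p = 0.000738) compares mix culture with single culture signals at background, not with this bound. Probe 1 entered the test only through mix culture, where it is high, so this p-value adds no support to the bound. It was called in all 6 fits that left out an array, with adjusted p up to 0.0103 by limma. With normexp the change was 0.41 (adjusted p = 0.504), and the methods' t-test gave an adjusted p of 0.0654, neither of them a call.

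Probe 2 of DHX58 had intensities of 1.85, 7.21 and 3.67 in single culture, of which replicate 2 alone was well above background. It had 35.7, 57.2 and 43.1 in mix culture, all well above background. The lowest mix culture array thus lay above the highest single culture array. The log2 level was −5.63 ± 1.13 in single and −2.09 ± 0.55 in mix culture (SD, n = 3), a rise of 3.54 (SE 0.56, adjusted p = 0.0450 by limma). Against the 1 single culture array that measured it, on slide 2, the mix culture arrays were 3.55-, 7.33- and 6.20-fold higher. The first of these values is for mix culture replicate 1 on slide 1, so it compares across slides. The fitted rise also rests on 2 single culture arrays at background, and against the lowest signal above background on slide 1 the mix culture array was at least 7.54-fold higher. The call was lost with no filter on dim probes (adjusted p = 0.0569), quantile normalization (0.0580), normexp (0.68 on the log2 scale, adjusted p = 0.401), the methods' t-test (0.297) and on leaving out single culture replicate 3 (0.196), mix culture replicate 1 (0.0536), 2 (0.209) or 3 (0.205).

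**Figure D2:**
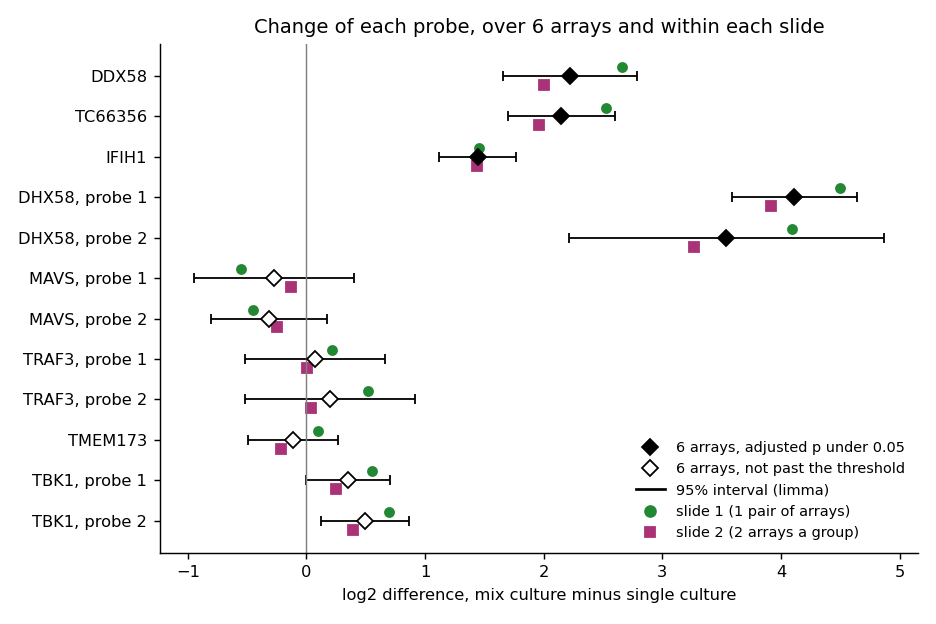
Log2 difference of mix minus single culture (x axis) for each probe, as diamonds with 95% intervals from limma over 6 arrays (filled where the adjusted p is under 0.05), and within slide 1 (circles, 1 pair of arrays) and slide 2 (squares, 2 arrays a group). The receptor probes lie between 1.44 and 4.11, where the values of DHX58 rest on single culture signals at background (3 of 3 arrays for probe 1, 2 of 3 for probe 2), and the adaptor intervals include 0.

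With the slide as a block, 5 of 11 member probes were called, all higher, against 7.2% of all tested probes in either direction, 3.98% higher and 3.22% lower. The probe added was the second of TBK1. With the replicate number as a block, the same 4 member probes were called, against 5.25% of all tested probes.

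**Figure D3:**
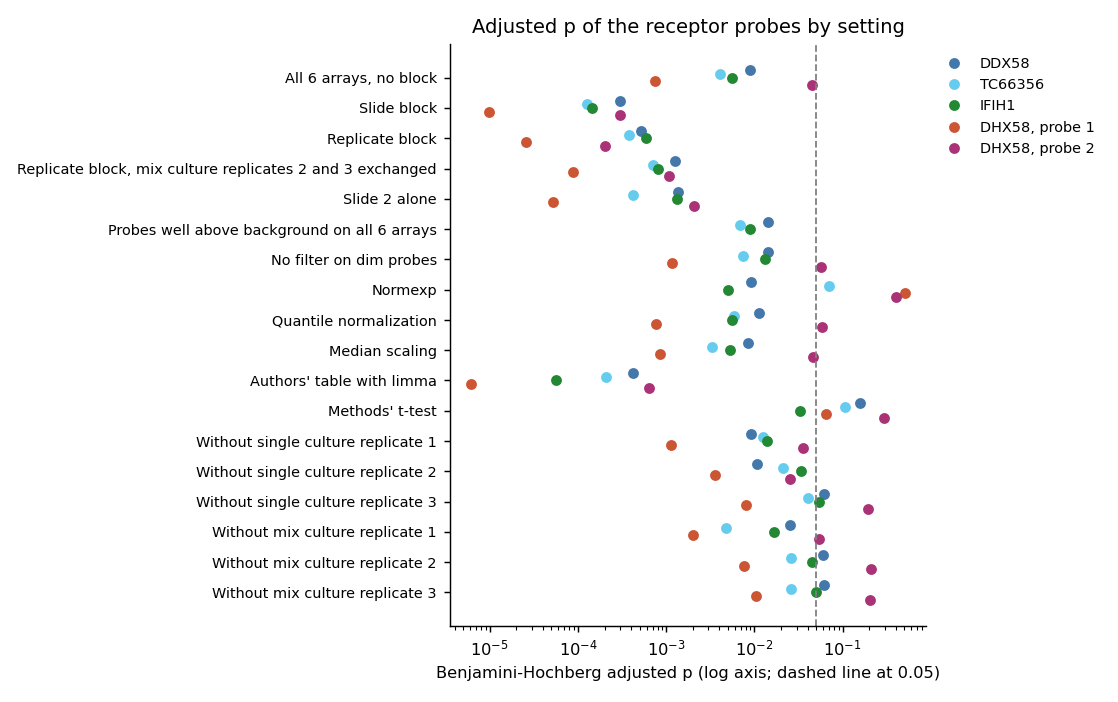
Benjamini-Hochberg adjusted p (x axis, log scale, dashed line at 0.05) of the receptor probes and TC66356 under each setting (y axis). Points right of the line are not called. DHX58 probe 2 crosses the line in 8 of 16 alternatives and IFIH1 in 1 of 17.

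TBK1, the kinase that MAVS and STING share, was slightly higher in mix culture by both probes but did not pass the test. Probe 1 (chr10:7205593-7205870, a span of 278 bases that joins separate stretches) had intensities of 63.2, 58.1 and 64.1 in single and 105, 78.4 and 67.8 in mix culture. Its log2 difference was 0.35 (SE 0.15, 95% interval −0.003 to 0.70, adjusted p = 0.577 by limma). Probe 2 (chr10:7208649-7208708) had intensities of 584, 556 and 619 in single and 1068, 853 and 701 in mix culture. Its log2 difference was 0.49 (SE 0.16, 95% interval 0.12 to 0.86, adjusted p = 0.374). For both, the lowest mix culture array lay above the highest single culture array, and the difference was larger on slide 1 (0.56 and 0.69) than on slide 2 (0.25 and 0.39). With the slide as a block, probe 2 was called (adjusted p = 0.0412) and probe 1 was not (0.103). From the authors' log2 table both were called by limma (0.0394 for probe 1 and 0.0142 for probe 2). That table is centred within slides and was fitted without a slide term, which tends to make p-values too small.

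MAVS, the mitochondrial adaptor of the receptors, did not pass the test and overlapped between groups on both probes. Probe 1 (chr24:17512966-17513025) had intensities of 63.1, 80.6 and 57.8 in single and 48.8, 66 and 59.4 in mix culture. Its log2 difference was −0.27 (SE 0.29, 95% interval −0.95 to 0.40, adjusted p = 0.909 by limma). Probe 2 (chr24:17520384-17520443) had intensities of 40.4, 26.2 and 21.8 in single and 33.5, 21.9 and 18.7 in mix culture, with a log2 difference of −0.32 (SE 0.21, 95% interval −0.80 to 0.17, adjusted p = 0.791). Slide 1 was the brighter slide for probe 2 and the dimmer one for probe 1 in both groups, relative to the 75th percentile. On leaving out each array, probe 1 ranged from −0.41 to −0.004 (without mix culture replicate 1; −0.075 without single culture replicate 2) and probe 2 from −0.48 to −0.16 (without single culture replicate 1). The upper ends of both intervals lie below the lower end of the IFIH1 interval (1.12).

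TRAF3, a ubiquitin ligase that joins MAVS to the kinases, gave small rises by both probes. They did not pass the test and changed sign on leaving out single culture replicate 1. Probe 1 (chr8:70789387-70789446) had intensities of 139, 170 and 199 in single and 183, 198 and 175 in mix culture, with a log2 difference of 0.07 (SE 0.25, 95% interval −0.52 to 0.66, adjusted p = 0.981 by limma). Probe 2 (chr8:70790558-70790617) had 17.1, 27.5 and 27.4 in single and 27.8, 32.4 and 24.9 in mix culture, with a log2 difference of 0.20 (SE 0.31, 95% interval −0.52 to 0.92, adjusted p = 0.952). Both probes were lower on slide 1 in both groups, by 0.68 and 0.96 in single culture and by 0.47 and 0.48 in mix culture on the log2 scale. Without single culture replicate 1, the differences were −0.15 and −0.12. TMEM173, the adaptor of the DNA-sensing branch (chr2:34784244-34784303), had intensities of 58.0, 58.5 and 55.0 in single and 70.2, 48.1 and 50.1 in mix culture. Its log2 difference was −0.11 (SE 0.16, 95% interval −0.49 to 0.26, adjusted p = 0.947 by limma), and it was 0.09 on slide 1 and −0.22 on slide 2.

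In the order of their changes, DDX58 came before IFIH1, TBK1, TRAF3, TMEM173 and MAVS. DHX58 has no place in this order, since its single culture signal was at background on 3 of 3 arrays for probe 1 and on 2 of 3 for probe 2. In the fit without a block, the 95% intervals of DDX58 and IFIH1 overlapped, and those of TBK1, TRAF3 and TMEM173 overlapped their neighbours. The interval of IFIH1 in that fit (1.12 to 1.77) did not overlap those of TBK1. With the slide as a block, the intervals of DDX58 (1.83 to 2.62) and IFIH1 (1.22 to 1.67) did not overlap.

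The other genes of the pathway were taken as 6 lists of 100 genes, of which 74 were tested, each by its brightest probe. Of these, 1 was called higher and 0 lower, their median log2 difference was −0.02, and 33 differences were above 0, against a median of −0.05 over all tested probes. The called share over the brightest probe of each of 10302 symbols was 0.844% higher. At an unadjusted p under 0.05, 6 of the 74 were higher and 1 was lower by limma, against 4.86% and 3.84% of all tested probes. In either direction these were 7 in all, near the 8.71% of all tested probes. The methods' t-test called 0 and had 10 at an unadjusted p under 0.05, against 9.73% of all tested probes. The called gene was IFIT3, an interferon-induced protein that bridges MAVS and TBK1. Its intensity was 8.24, 11.3 and 7.69 in single and 73.3, 32.4 and 40.8 in mix culture, without overlap. The rise was 2.30 on the log2 scale (SE 0.28, adjusted p = 0.0142 by limma), 2.97 on slide 1 and 1.96 on slide 2, and the call was lost with normexp, by the methods' t-test and on leaving out single culture replicate 3 or mix culture replicate 3. With the slide as a block 7 of the 74 were called higher and 0 lower, against 4.03% of all symbols higher. With replicate numbers as a block 5 were called higher, against 3.23% of all tested probes higher.

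Among 14 tested cofactors of RIG-I and MDA5 (median −0.10), none was called by its brightest probe, and 0 had an unadjusted p under 0.05 by limma, against 1 by the methods' t-test. OASL, a protein that enhances RIG-I signalling, had probes that disagreed. Its brightest probe, at 450, 467 and 449 in single and 626, 587 and 507 in mix culture, had a log2 difference of 0.26 (adjusted p = 0.790 by limma). Its other probe had intensities of 1.67, 1.30 and 2.01 in single culture, none well above background, and 21.0, 30.4 and 15.8 in mix culture. By that probe OASL was at least 4.88-fold higher. The limma fit (adjusted p = 0.00242) compares mix culture with single culture signals at background, not with this bound. That probe entered the test only through mix culture, where it is high, so the p-value adds no support to the bound. TRIM25, the ubiquitin ligase of RIG-I, had the largest difference among the brightest probes, 0.54 (adjusted p = 0.755, and 0.0339 with the slide as a block).

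Of 9 tested members of the MAVS complex (median 0.12), IFIT3 was called. CASP10, a caspase, had a log2 difference of 0.69 (adjusted p = 0.371 by limma, and 0.00836 with the slide as a block). IRF3, the transcription factor that the kinases activate, had a difference of −0.04 (adjusted p = 0.988). None of 18 tested inhibitors of the receptors (median −0.003) was called by limma, with 1 higher and 0 lower at an unadjusted p under 0.05. RNF125, a ligase that marks RIG-I for breakdown, had the largest difference, 0.76 (adjusted p = 0.443, and 0.0463 with the slide as a block).

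None of 14 tested scaffolds and partners of TBK1 and IKBKE (median 0.15) was called by limma, with 1 higher and 0 lower at an unadjusted p under 0.05. NFKBIA, the inhibitor of NF-κB, had the largest difference, 0.76 (adjusted p = 0.276, and 0.0126 with the slide as a block), and its intensity was 238, 279 and 268 in single and 494, 538 and 370 in mix culture, without overlap. The NF-κB subunits NFKB1 and RELA had differences of −0.18 and −0.08. Among 16 tested genes of cytosolic DNA sensing (median −0.04), none was called by either fit, and at an unadjusted p under 0.05 limma had 0 higher and 1 lower. The largest difference was that of RNASEH2A, a subunit of the nuclease that removes RNA from DNA hybrids, at −0.42 (adjusted p = 0.913).

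Of 4 tested genes that the pathway is known to induce (median 0.33), none was called by limma, with 2 higher and 0 lower at an unadjusted p under 0.05. CCL5, a chemokine, had intensities of 14.1, 10.8 and 7.59 in single and 42.3, 22.9 and 18.7 in mix culture, which did not overlap. Its log2 difference was 1.26 (SE 0.25, adjusted p = 0.0999, and 0.00338 with the slide as a block). IFNK, an epithelial interferon, had a difference of 0.83 (adjusted p = 0.192, and 0.0197 with the slide as a block). CXCL10, another chemokine, had a difference of −0.18. The probe of IFNB1, the gene of interferon β, was well above background on 0 of 6 arrays.

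**Figure D4:**
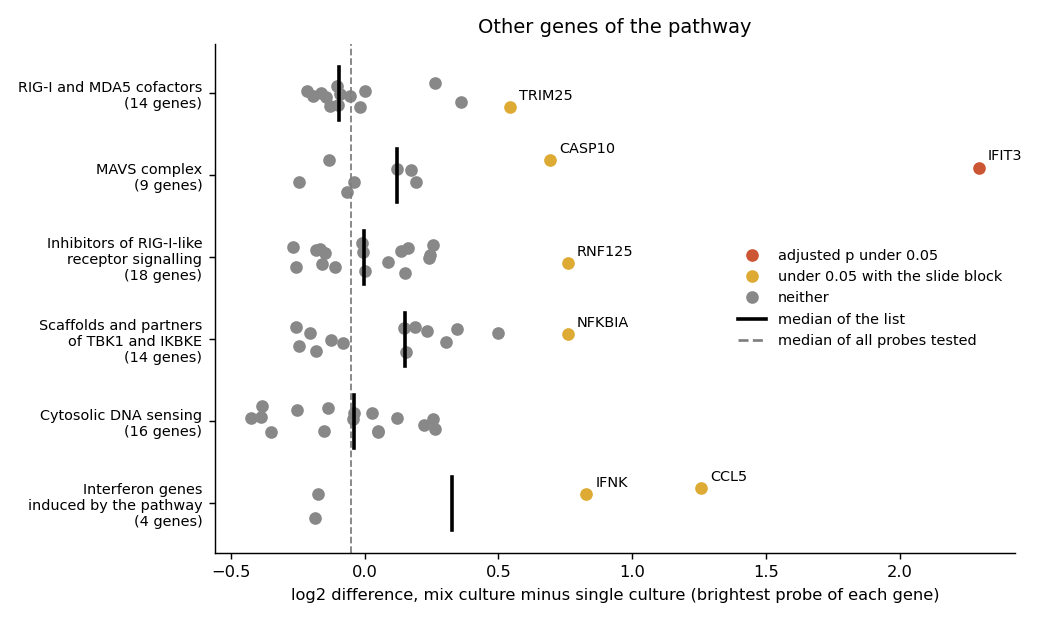
Log2 difference of mix minus single culture (x axis) for the brightest probe of each tested gene in the 6 lists (y axis), with the median of each list (thick bar) and of all tested probes (dashed line). IFIT3 at 2.30 is the 1 gene called without a block, and 6 further genes (yellow) are not called there but are with the slide as a block.

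The probes whose profiles lay nearest to DDX58 and IFIH1 were found by the root mean square of the difference between mean-centred log2 signals over the 6 arrays, among 16153 probes. DHX58 had no probe above background on all arrays and was left out. Nearest to DDX58 were CIITA, the activator of MHC class II genes (0.14), CCDC148 (0.16) and RNASE4, a secreted ribonuclease (0.20). Like DDX58, each had its lowest signal in single culture replicate 1, which follows from choosing them by likeness to its profile. Their rises were 2.34, 2.13 and 2.0, and the last had an adjusted p of 0.0548 by limma. Nearest to IFIH1 were DTX3L, a ubiquitin ligase (0.091), CREM, a transcription factor of cyclic AMP signalling (0.11), and RABGAP1L, a regulator of Rab GTPases (0.11). Their rises were 1.38, 1.43 and 1.27, all called. Rises near those of DDX58 and IFIH1 likewise follow from the choice and are no separate result.

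**Figure D5:**
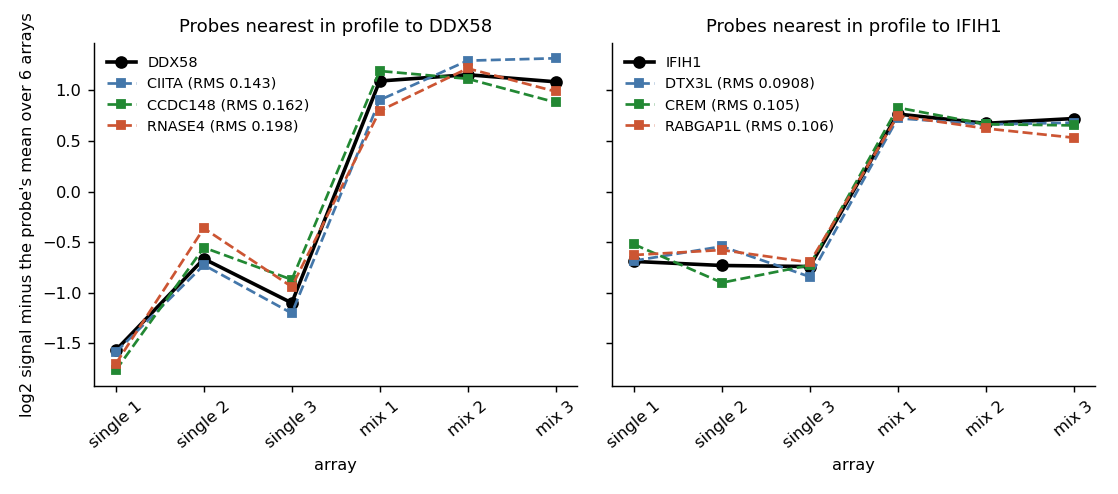
Log2 signal minus the probe's own mean over the 6 arrays (y axis) on each array (x axis), for DDX58 and IFIH1 (black) and the 3 symbols nearest in profile (dashed), with their root mean square distances. DDX58 and its neighbours are lowest in single culture replicate 1, and IFIH1 has flat groups on either side of the step. The neighbours were chosen for this likeness.

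Of the introduced genes, HRAS had a log2 level of 6.42 ± 0.43 in single and 5.79 ± 0.36 in mix culture (SD, n = 3), a difference of −0.62 (adjusted p = 0.608 by limma). The 4 probes of CTNNB1, the gene of β-catenin, differed by 0.15 to 0.27 and were not called. Whether these canine probes read the introduced sequences is not given in the sources used here, and their part in the receptors' rise was not tested.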

How the data were processed

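For each array (Agilent canine, one colour, Cy3) the authors deposited a scanner file that holds spot intensity on a linear scale, background-subtracted by Feature Extraction 11.5.1.1 (slide 1) or 12.1.1.1 (slide 2) and not scaled between arrays. They also deposited a table of log2 values, whose steps are not given in the sources used here. Its 2 slide 1 columns summed to 0 within 0.011 for 100% of probes, so it is centred per probe within slides. It served as an alternative, fitted without a slide term, which tends to make its p-values too small.

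From the scanner files, outlier-flagged spots were dropped (5 to 9 per array), spots of a probe averaged, log2 taken, and each array's 75th percentile (161 to 233 intensity units) subtracted. No spot was saturated. A probe well above background on all arrays of at least 1 group was tested with limma 3.58.1 in R 4.3.3. The settings were lmFit, eBayes, two-sided, Benjamini-Hochberg over all tested probes, and a call at 0.05. The fit was also run on simulated data, drawn independently for each array. Those data held no slide effect, so that run does not test the fit where slides differ. A probe measured in 1 group has only a bound. Its bright mean is set against, per dim array, the higher of its own signal and the lowest signal well above background (4.19 to 4.48 units). Groups and replicate numbers are those of the sample titles. With 6 arrays, their number limits the precision. For normexp the median spot signal was used, since 4 of 6 files hold no mean signal.

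Deviations from group means correlated within replicate numbers (r = 0.80, 0.53 and 0.57 across probes). Across numbers on slide 2 they correlated at 0.61 and 0.63, no lower than within numbers on that slide. These values thus do not show pairing by number beyond the shared slide, and the replicate block is given only as an alternative. Alternatives were the slide or replicate number as a block, slide 2 alone, 2 other filters, normexp, 2 other scalings, the authors' table, the methods' t-test (unpaired, two-sided) and each array left out. The members and lists were chosen with earlier results of these data known. Every member probe is named; in each list, the called genes and the one with the largest difference are named, and IRF3, NFKB1, RELA, OASL, CASP10, IFNK, CXCL10 and IFNB1 were added after their values were seen. Of the 7 member symbols on the array, 6 matched a RefSeq table of UU_Cfam_GSD_1.0, used for names alone.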

Additional observations from a re-analysis of the deposited data

How the results depend on the processing

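DDX58, IFIH1, DHX58, MAVS and TBK1 kept their direction in all alternatives run, and TMEM173 in all but slide 1 alone (0.09). TRAF3 reversed on leaving out an array, to −0.15 (probe 1) and −0.12 (probe 2) without single culture replicate 1, and for probe 1 to −0.006 without mix culture replicate 2 and −0.0009 without mix culture replicate 3. Over these fits it ranged from −0.15 to 0.23 (probe 1) and from −0.12 to 0.37 (probe 2). Of 11 member probes, 4 were called. The count was 2 with probes above background on all 6 arrays (which leaves out DHX58), 2 with normexp, whose offset of 50 exceeds most DHX58 signals, 1 by the methods' t-test, and 1 to 4 on leaving out each array (1 without single culture replicate 3, 2 without mix culture replicate 2 or 3). It was 5 with the slide block, 4 with the replicate block, and 3 to 6 elsewhere. Of 74 pathway genes, 1 was called. The count was 7 with the slide block, 5 with the replicate block, and 7 with that block and mix culture replicates 2 and 3 exchanged. It was 3 on slide 2 alone, where 999 of 26809 tested probes were called. With the deposited log2 values it was 12, where 4077 of 26623 tested probes were called. Both counts are near the shares of all tested probes. When a gene's probes were averaged it was 2, for which no share over all genes is given. It was 0 with normexp, 0 by the methods' t-test (10 at an unadjusted p under 0.05), and 0 to 1 on leaving out each array. The replicate block changed no member call. Over all tested probes, the calls were 235, and 1917 with the slide block, 1399 with the replicate block, 1446 with the exchanged one, 999 on slide 2 alone, 4077 from the authors' table, 143 with all 6 arrays above background, 101 with normexp, 8 by the methods' t-test, and 92 to 247 on leaving out each array. The counts from the authors' table rest on slide-centred values fitted without a slide term, so they are not on a par with the others. The cause of these shifts was not tested. Slide 1 alone holds 1 array a group and gave values with no test. The detection limit of the arrays bounds DHX58 in single culture, where its signal was at background on 3 of 3 arrays for probe 1.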
